A study of Mus musculus with 24 samples.

Results

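The comparison was between the left ventricles of 3 Per2-/- and 3 wildtype mice after 30 minutes of myocardial ischemia and 60 minutes of reperfusion (I30R60), and these 6 hearts were chosen by the treatment in their labels from the 24 hearts of the series. The mice were male, 12 to 16 weeks old, kept in 14 hours of light and 10 hours of dark, and operated at the same time of day (ZT 0). All carry the strain label BL6C57. The wildtype mice were C57BL6 from The Jackson Laboratory, and the Per2-/- mice, which lack Per2 in every tissue, came from the same supplier. The sources used here do not state that the wildtype mice of the array experiment were littermates of the knockouts, so that loss of Per2 and strain background cannot be told apart in what follows. The other 18 hearts were controls (sham), underwent 30 minutes of ischemia alone (I30), or were preconditioned by 4 short occlusions, each 5 minutes long and followed by 5 minutes of restored flow (IP0), with 3 hearts of each genotype in each treatment. The study describes the controls as sham operated, while their sample titles call them untreated. If they were untreated, changes from sham also hold the effect of the operation. Each heart gave 1 Affymetrix Mouse Gene ST array, and 18820 genes were tested.

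Per2 is a repressor of the circadian clock, in which Clock or Npas2 pairs with Arntl (Bmal1) to switch on the Per and Cry genes, whose proteins then switch that pair off. In the heart the clock is known to time metabolism, and reperfusion after ischemia is known to set off an inflammatory response, with cytokines, chemokines and adhesion molecules that draw neutrophils into the injured muscle. Part of that response runs through interferons, which induce a set of antiviral genes by way of Stat and Irf factors that bind interferon-stimulated response elements. The question put to these hearts was whether the loss of Per2 alters what the reperfused ventricle transcribes.

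Values are log2 RMA intensities, so that a difference of 1 is a 2-fold difference, and a gene was called at an adjusted p under 0.05 in limma. The 6 arrays resembled each other closely. Correlations over all probe sets were 0.981 to 0.987 within a genotype and 0.980 to 0.986 between genotypes. Markers of ventricular cardiomyocytes averaged between 12.60 and 12.71 in the 6 hearts, and the atrial light chain Myl7 stood between 2.97 and 3.52. In 4 arrays of other treatments Myl7 was at least 5.22. These are 2 wildtype sham, 1 Per2-/- sham and 1 Per2-/- IP0 heart. Some results that rest on these arrays are also given without them, and the rest only with them. Without them 1 wildtype and 2 Per2-/- sham hearts remain. For calls lost against sham in those fits, the smaller number of hearts and the high Myl7 cannot be told apart.

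Between the genotypes after I30R60, 33 genes were called, which is 0.175% of the genes tested. Of these, 13 were higher (0.0691% of genes tested) and 20 lower (0.106%) in Per2-/- hearts, and 10 differed by at least 2-fold. The calcineurin regulator Rcan2 and the R-spondin receptor Lgr6 had the largest differences and were lower, and the vasoactive peptide gene Edn3 had the largest difference upward. In all 33 genes the 3 Per2-/- hearts lay apart from the 3 wildtype hearts, against 12.4% of all genes tested (5.8% with all Per2-/- hearts higher and 6.61% with all lower). The genes were chosen by their difference in these same hearts, so that this lack of overlap adds no support. The called genes differed by 0.46 to 3.84 log2 units. The last gene inside the threshold was D7Ertd443e (adjusted p = 0.0461, limma) and the first outside it was Ctse (adjusted p = 0.0526, limma). Leaving out wildtype heart 2 left 14 calls, leaving out wildtype heart 3 left 9, and leaving out Per2-/- heart 1 left 13. Of the 33, Rcan2, Lgr6, Edn3, Snrpe and Bcl2l13 were called in all 18 refits with another model, scaling, gene table or set of arrays.

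Rcan2 encodes an inhibitor of calcineurin, the phosphatase that activates NFAT in stressed cardiomyocytes. Its log2 values were 9.93, 9.92 and 9.85 in wildtype hearts and 5.70, 6.03 and 6.46 in Per2-/- hearts. The wildtype hearts lay within 0.1 log2 units of each other, while all Per2-/- hearts were far below them. The difference was -3.84 ± 0.43 (SE, n = 3 hearts each), a 14.3-fold lower level (adjusted p = 0.0001, limma). The other 13 measured genes of a list of calcineurin and its regulators were not called, with Nfatc4 at -0.46, Cabin1 at -0.28 and Akap5 at -0.28, and the median over the list was -0.01 against 0.00 over all genes tested.

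Lgr6 encodes a receptor for R-spondins, secreted proteins that strengthen Wnt signalling. It read 7.11, 7.37 and 7.23 in wildtype hearts and 4.79, 4.25 and 4.61 in Per2-/- hearts, with a wide gap between the genotypes. The difference was -2.68 ± 0.19 (adjusted p = 2.27e-07, limma). Of the 16 measured genes of its list of R-spondins, their receptors and Wnt receptors, Lgr6 was the only one called. Its relative Lgr5 went the other way without a call, at +0.53 (adjusted p = 0.267, limma), with all 3 Per2-/- hearts above the wildtype hearts.

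Edn3 encodes endothelin 3, a ligand of the endothelin B receptor. Its values were 5.12, 4.95 and 5.05 in wildtype and 6.60, 6.50 and 7.23 in Per2-/- hearts. All Per2-/- hearts stood above the wildtype hearts, by 1.74 ± 0.24 on the log2 scale (3.33-fold, adjusted p = 0.00179, limma). The rest of the endothelin system showed no call, with Edn1, the main endothelin of the heart, at +0.19, Edn2 at -0.24 and the receptor Ednrb at +0.06.

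Genes of mitochondria and of cell death were among the called genes. Bcl2l13, a BCL2 family protein of the outer mitochondrial membrane that takes part in mitophagy, read 8.90, 8.91 and 8.91 in wildtype and 7.96, 7.82 and 7.73 in Per2-/- hearts. The wildtype values were nearly identical, and the Per2-/- hearts were 1.07 log2 units lower (SE 0.09, adjusted p = 6.55e-07, limma). Bik, a BH3-only protein that promotes apoptosis, was also lower, at 4.92, 5.20 and 5.21 against 4.49, 4.15 and 4.55 (adjusted p = 0.0419, limma). These were the 2 called among 15 measured BCL2 family genes (0.106% of all genes were called lower), whose median difference was 0.00, and Bak1 stood at -0.44 without a call. Nnt, which makes mitochondrial NADPH from NADH with the proton gradient, was higher in Per2-/- hearts, at 11.33, 11.36 and 11.34 against 10.26, 10.57 and 10.47. The 3 Per2-/- hearts agreed within 0.1 log2 units and the difference was 0.91 ± 0.08 (adjusted p = 2.08e-06, limma). The other probe set of Nnt differed by 0.33. The C57BL/6J substrain is known to carry a deletion in Nnt, and none of the other 13 mitochondrial redox genes measured was called. Atpsckmt, which methylates a subunit of the mitochondrial ATP synthase, was lower by 0.60 log2 units.

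Further called genes act in the membrane, in second messengers and in vessels. Kcne1, the small subunit of a potassium channel that repolarizes cardiomyocytes, read 6.17, 5.45 and 5.65 in wildtype hearts and 4.30, 5.02 and 4.80 in Per2-/- hearts, which lay below without overlap (difference -1.05, adjusted p = 0.0455, limma). Pde1c, a phosphodiesterase that calcium and calmodulin activate, was lower by 0.64 log2 units, and Sdc2, a heparan sulfate proteoglycan of the cell surface, by 0.97. Ddah1, which degrades an endogenous inhibitor of nitric oxide synthase, was higher by 0.57, and Rab4a, a GTPase of endosome recycling, by 1.33. Frat1, a binding protein of the Wnt pathway kinase GSK3, was lower by 0.67.

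Genes of the nucleus and the cell cycle were called in both directions. Snrpe, a core protein of the spliceosome, read 7.31, 7.56 and 7.63 in wildtype and 8.70, 8.84 and 8.56 in Per2-/- hearts. All Per2-/- hearts were clearly higher, by 1.20 ± 0.09 (adjusted p = 5.36e-07, limma). Cks2, which binds cyclin-dependent kinases, was higher by 0.75, and its other probe sets differed by 0.52 and 0.64. Mcm6, part of the replicative helicase, was lower by 0.90, Parp2, an enzyme of the response to DNA breaks, by 0.52, and Cops8, a subunit of the COP9 signalosome, by 0.54. The RNA-binding protein translin (Tsn) was lower by 0.46, and the deubiquitinase gene Usp40 by 0.55.

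The remaining called genes were Cmbl (-0.89), Sema5a (-0.73), Lrmda (-1.06), 2310067E19Rik (-0.54), D7Ertd443e (-0.98), Tmem37 (+1.00), Meig1 (+0.98), Wdfy1 (+0.85) and the olfactory receptor gene Olfr672 (+0.81), besides Ifit1, Oasl1, Vsig4 and Nts, which are described with their pathways. Olfr672 read 2.31, 2.16 and 2.46 in wildtype and 3.04, 3.44 and 2.89 in Per2-/- hearts. All of these lie below the lowest array median of 4.39, and the deposited values carry no detection calls.

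The differences after reperfusion were next set beside those in the other treatments, to see which called genes separated the genotypes without reperfusion as well. Of the 33, 16 were also called in the same direction in sham hearts (where 0.266% of genes were called), 17 after I30 (0.664%) and 12 after IP0 (0.0797%). In all, 11 were called in all 3 other treatments, 4 in 2, 4 in 1 and 14 in none. The sign was the same in 29 genes in sham hearts, in 26 after I30 and in 32 after IP0. In 19 genes the 12 Per2-/- hearts of the series lay apart from the 12 wildtype hearts, as 0.149% of all genes tested did. Without the 4 arrays with high Myl7 fewer of them were also called in sham hearts, where a single wildtype heart was left in that fit.

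Rcan2, Lgr6, Edn3, Snrpe, Bcl2l13, Nnt, Cmbl, Sdc2, Cops8, Wdfy1 and Tmem37 were the 11 called in every treatment. Lgr6 differed by -2.60 in sham hearts, -2.61 after I30 and -2.22 after IP0, and Snrpe by 1.13, 0.99 and 1.11. These stood close to their differences after reperfusion. Rcan2 differed by -3.66, -3.46 and -2.57, and Edn3 by 1.72, 1.85 and 1.39. None of the 11 passed the test against sham hearts in either genotype. Lgr6 stood at 0.02 in wildtype and -0.06 in Per2-/- hearts against sham, and the smallest adjusted p among the 11 was that of Wdfy1 in wildtype hearts (0.364, limma).

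The 14 genes called only after I30R60 were 2310067E19Rik, Atpsckmt, Bik, Cks2, D7Ertd443e, Frat1, Ifit1, Lrmda, Nts, Oasl1, Olfr672, Parp2, Usp40 and Vsig4. Their median absolute difference was 0.73 log2 units after I30R60, 0.23 in sham hearts, 0.14 after I30 and 0.19 after IP0. These values describe genes chosen by the call after I30R60 and carry no test. For the 19 called in at least 1 other treatment the medians were 0.97, 0.91, 0.99 and 0.91.

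The test of the difference itself called none. The genotype difference after I30R60 was tested against that in sham hearts, that after I30 and the mean of the other 3 treatments. No gene was called in any of these contrasts (0 in limma, with 1034, 1853 and 1255 genes at an unadjusted p under 0.05, or 5.49%, 9.85% and 6.67%), which does not show that the differences were equal. The median standard error of these contrasts was larger, at 0.194 for the contrast with sham against 0.137 for the difference within a treatment. Olfr672 differed from its sham difference by 1.00 ± 0.22 and Oasl1 by 0.72 ± 0.15, each with an adjusted p of 0.448 (limma). A call after I30R60 and no call in sham hearts therefore do not show that the genotypes differed more after reperfusion.

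**Figure D1:**
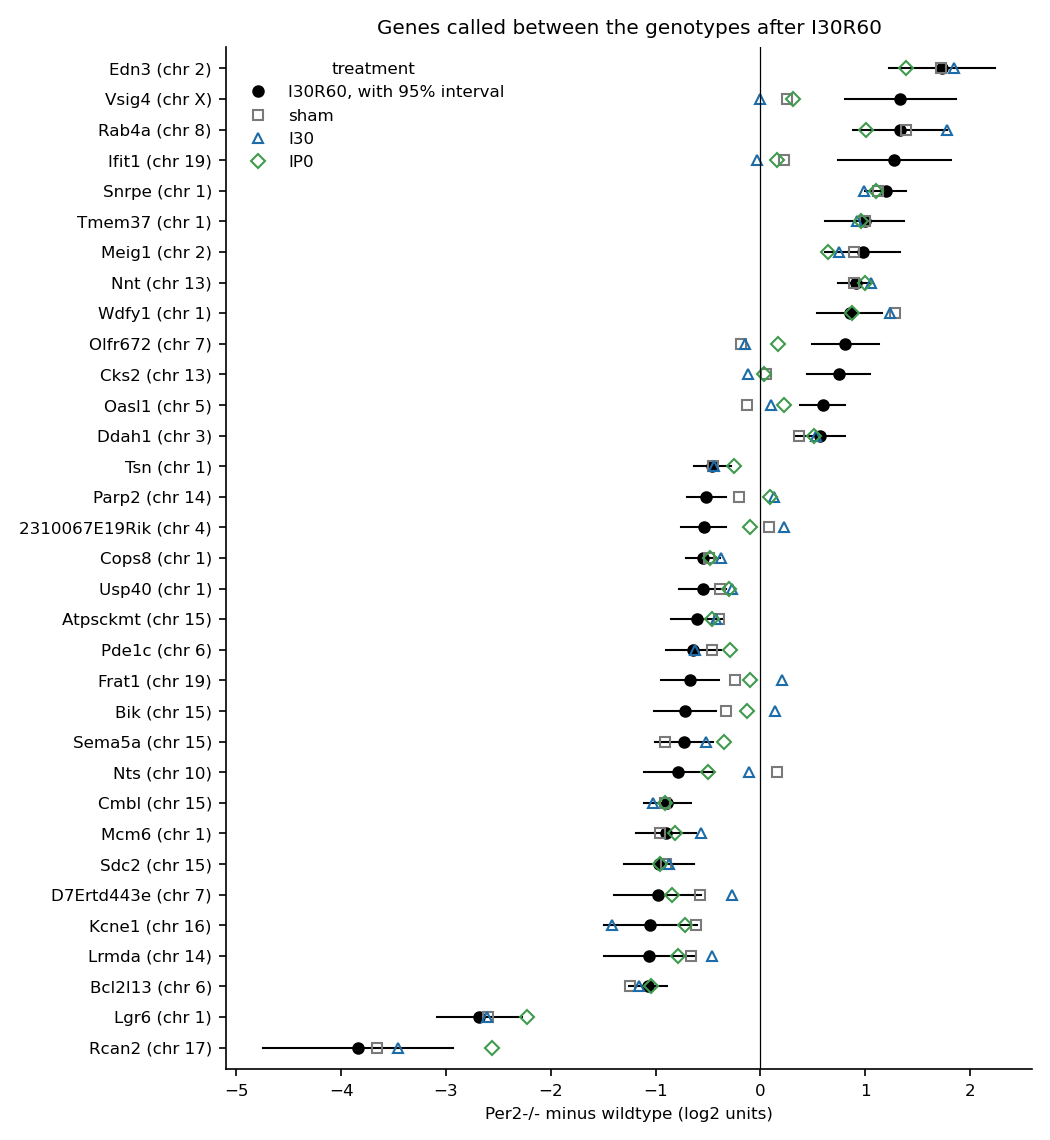
Differences between Per2-/- and wildtype hearts in log2 units (horizontal axis) for the 33 genes called after I30R60 (rows, with their chromosome). Filled circles with 95% intervals are I30R60, open squares sham, triangles I30 and diamonds IP0, from 3 hearts per genotype each. Rcan2 and Lgr6 lie far to the left in all treatments, while for Vsig4 and Ifit1 the other treatments lie between -0.03 and 0.32.

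The place of the called genes in the genome was uneven. Per2 lies on chromosome 1, which held 8 of the 33 called genes (24.2%) and 5.64% of the genes tested, so that 0.754% of its genes were called against 0.175% over the genome. Counted in genes measured along RefSeq's order, Wdfy1 lay 87, Usp40 25 and Cops8 14 places before Per2, and Tsn lay 77, Tmem37 91, Mcm6 117, Snrpe 169 and Lgr6 192 places after it, of 1061 measured genes on the chromosome. All 8 were thus within 192 places of Per2, between places 367 and 646 in this order. That span is broad and was set by the called genes themselves. Their directions were mixed, with 3 higher and 5 lower.

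Chromosome 15 held 5 called genes (15.2%, against 3.78% of genes tested), all of them lower. Cmbl, Atpsckmt, Sema5a and Sdc2 stood at places 78, 80, 82 and 83 of 711, and Bik at place 443. Sdc2 read 7.61, 7.21 and 7.56 in wildtype hearts and 6.36, 6.43 and 6.69 in Per2-/- hearts, and Cmbl 9.23, 9.12 and 8.83 against 8.33, 8.11 and 8.07. Neither gene overlapped between the genotypes. The genes between them did not share the direction: Cct5 differed by 0.07 and Tas2r119 by 0.17, and neither was called. The genes that directly follow Sdc2, from Cpq to Rnf19a, lay mostly below 0 without a call. Rpl30 stood at -0.59 and Spag1 at -0.61. Rida (0.57), Kcns2, Fbxo43 and 1700084J12Rik went the other way. These positions were noticed in the list of called genes, so that they are a description. The part of the strain background in them was not tested.

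**Figure D2:**
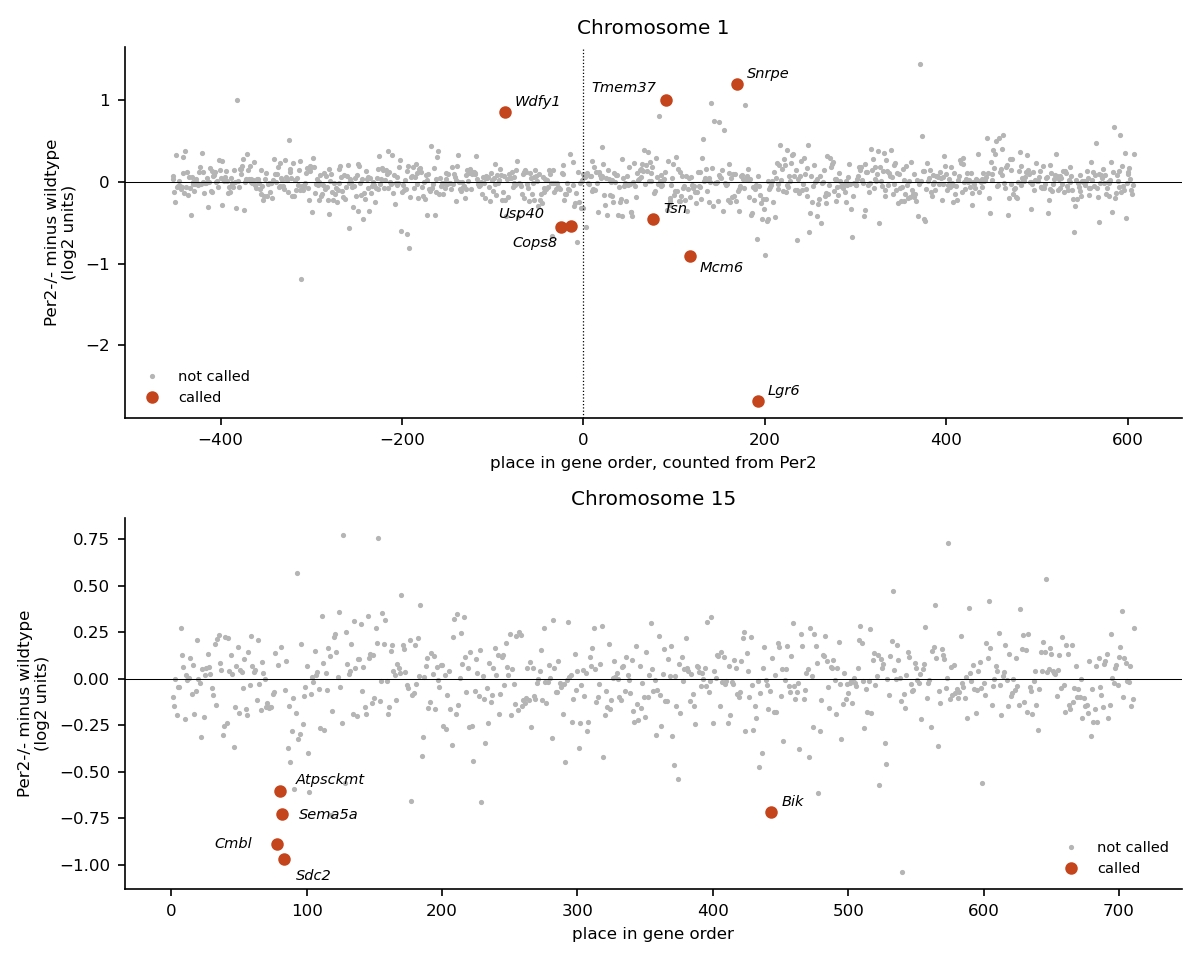
Difference between Per2-/- and wildtype hearts after I30R60 in log2 units (vertical axes) for each measured gene in its order along chromosome 1, counted from Per2 at 0 (dotted line), and along chromosome 15. Filled red points are called genes. The 8 called genes of chromosome 1 lie between -87 and 192 places from Per2, and 4 of the 5 of chromosome 15 lie at places 78 to 83.

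Of the interferon response genes, Ifit1 and Oasl1 were higher in Per2-/- hearts after I30R60, and the rest of the list lay on the same side without a call. Of 18 measured members of the list, 2 were called higher (Ifit1 and Oasl1) and none lower, and 10 had an unadjusted p under 0.05 in the higher direction, where 3.63% of all genes tested did. All 18 differences were above 0, against 49.9% of all genes, and their median was 0.44 against 0.00 over all genes tested. In 6 members all Per2-/- hearts lay above all wildtype hearts (5.8% of all genes tested). The promoters of the called members and of 2 others of the list are shown as a description. The stretches shown are 150 bases long for Ifit1 and Oasl1, 200 for Ifit3 and 250 for Cxcl10. They come from RefSeq (GRCm38.p6), end 1 base before the start of transcription, and carry in capitals the core of the interferon-stimulated response element on either strand, which was searched as GAAA, any 2 bases and GAAA, or as TTTC, any 2 bases and TTTC on the other strand. The Ifit1 promoter is chr19:34640739-34640888 (plus strand, 2 cores), that of Ifit3 chr19:34583329-34583528 (plus strand, 2 cores), that of Cxcl10 chr5:92348890-92349139 (minus strand, 1 core) and that of Oasl1 chr5:114923090-114923239 (plus strand, 0 cores).
Ifit1: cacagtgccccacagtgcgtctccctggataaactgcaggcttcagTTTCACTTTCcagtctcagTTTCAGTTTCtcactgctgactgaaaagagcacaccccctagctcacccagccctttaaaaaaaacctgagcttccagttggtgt
Ifit3: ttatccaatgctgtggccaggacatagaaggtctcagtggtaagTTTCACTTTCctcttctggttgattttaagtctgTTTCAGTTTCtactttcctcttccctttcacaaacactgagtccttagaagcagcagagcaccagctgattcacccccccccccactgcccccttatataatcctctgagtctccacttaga
Cxcl10: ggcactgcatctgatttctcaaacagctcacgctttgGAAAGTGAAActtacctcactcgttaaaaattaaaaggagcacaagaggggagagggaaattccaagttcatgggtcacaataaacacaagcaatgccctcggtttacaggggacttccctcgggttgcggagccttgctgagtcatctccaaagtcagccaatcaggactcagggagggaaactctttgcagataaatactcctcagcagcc
Oasl1: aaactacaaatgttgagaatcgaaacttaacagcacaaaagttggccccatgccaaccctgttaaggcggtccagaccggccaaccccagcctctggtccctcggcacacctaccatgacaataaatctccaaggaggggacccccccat
Within 250 bases before the start, the core stood in 9 of the 15 members with a promoter in the table (60.0%) and in 3.46% of all 27025 promoters. The list was made of interferon response genes, so that this share describes the list and not these hearts. Among the called genes it stood in 1 of 25, which is Ifit1. The E-box CACGTG, the motif that Clock and Arntl bind, stood in 2 of the 25 called genes (Cops8 and Parp2) and in 6.86% of all promoters. A match is a description of letters, and the absence of a match in Oasl1 says only that these letters are not in this window.

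Ifit1 encodes an interferon-induced protein that binds foreign RNA. Its values were 6.34, 5.91 and 6.20 in wildtype hearts and 8.25, 7.37 and 6.67 in Per2-/- hearts. The Per2-/- hearts were all higher but spread over 1.58 log2 units, and heart 3 was near the wildtype hearts. The difference was 1.28 ± 0.26 (2.43-fold, adjusted p = 0.0455, limma). From sham hearts Ifit1 rose by 1.09 in Per2-/- hearts (adjusted p = 0.0163, limma) and moved by 0.03 in wildtype hearts (adjusted p = 0.977, limma), and the test of the difference between these changes gave 1.06 ± 0.36 (adjusted p = 0.888, limma). It was called in 6 of 18 refits, with adjusted p up to 0.497, and was lost without any of the 3 wildtype hearts, without Per2-/- heart 1, without Per2-/- heart 2 or without the arrays with high Myl7 (adjusted p = 0.0902), without which its rise from sham in Per2-/- hearts was not called either (adjusted p = 0.0833).

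Oasl1, an interferon-induced protein that restrains the translation of Irf7, read 5.88, 5.72 and 5.61 in wildtype hearts and 6.53, 6.22 and 6.24 in Per2-/- hearts. These did not overlap, and the difference was 0.60 ± 0.10 (adjusted p = 0.0183, limma). It was called in 13 of 18 refits, and the call was lost without wildtype heart 2, wildtype heart 3, Per2-/- heart 1 or the arrays with high Myl7 (adjusted p = 0.0507), and with the 6 arrays alone. Oasl1 rose from sham hearts in Per2-/- hearts by 0.65 (adjusted p = 0.000545, limma), while the wildtype value was -0.07.

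Cxcl10, an interferon-induced chemokine for T cells, had the largest difference of the list among members without a call. It read 5.13, 4.81 and 6.38 in wildtype and 7.51, 6.59 and 5.90 in Per2-/- hearts, so that wildtype heart 3 was above Per2-/- heart 3, and it differed by 1.23 (adjusted p = 0.246, limma). The transcription factor Irf1 lay between 7.86 and 8.87 in wildtype and between 8.51 and 9.53 in Per2-/- hearts (difference 0.73), and the GTPase Mx2 4.79, 4.77 and 5.53 against 6.62, 5.34 and 5.25 (difference 0.71). Per2-/- heart 1 was the highest in each of these. Smaller differences without a call were those of the ISG15 protease Usp18 (0.59), of Ifit2 (0.52), Ifit3 (0.47) and Irf7 (0.42), and the lowest was that of Mx1 (0.06).

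The mean over the 18 genes was 6.16, 5.93 and 6.25 in wildtype hearts and 6.90, 6.65 and 6.29 in Per2-/- hearts. Per2-/- heart 3 was the lowest of its group in 16 of the 18 and stood barely above the wildtype range. The median difference lay between 0.32 and 0.59 with any heart left out. In the other treatments the median over the same genes was 0.09 in sham hearts, -0.02 after I30 and 0.19 after IP0, and the sham value was -0.08 without the arrays with high Myl7. From sham hearts, 2 of the 18 rose in wildtype hearts (1.66% of all genes did) and 6 in Per2-/- hearts (2.78%). Without those arrays 4 rose in Per2-/- hearts. The median change in wildtype hearts was 0.09, and 0.05 without those arrays, where a single wildtype sham heart is left and the calls were lost.

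**Figure D3:**
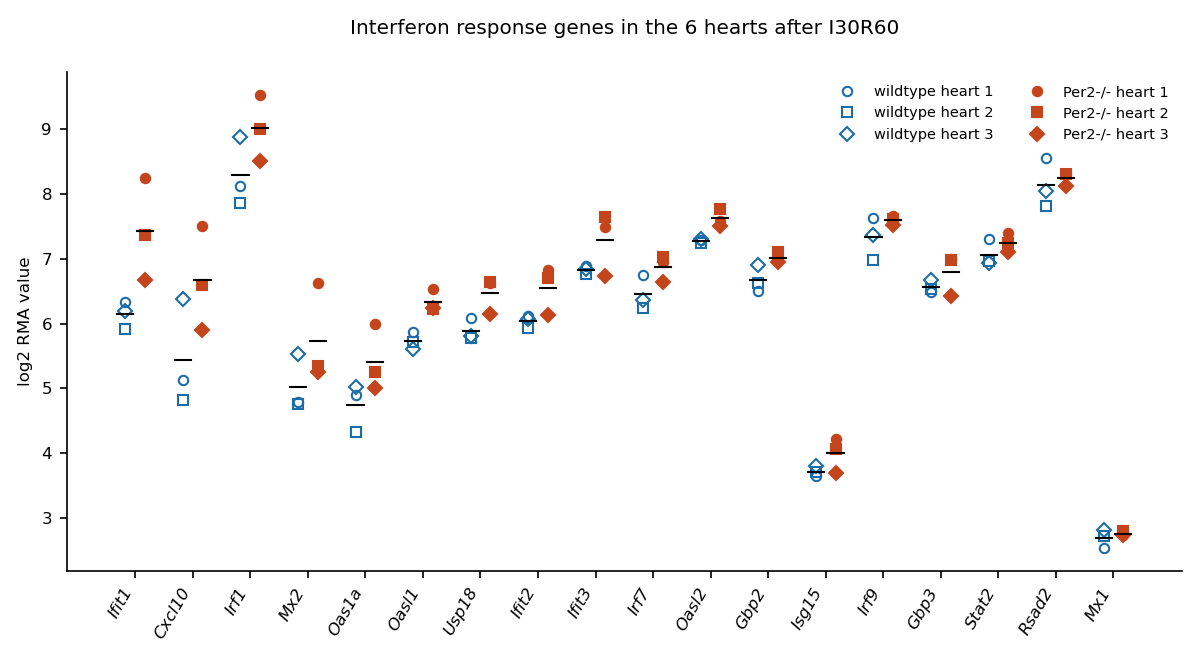
Log2 RMA values (vertical axis) of the 18 interferon response genes in the 6 hearts after I30R60, ordered by their difference, with open blue symbols for wildtype and filled red symbols for Per2-/- hearts, the same shape for the same heart number and short lines for group means. Per2-/- heart 3 (red diamonds) lies lowest of its group in 16 of the 18 genes.

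Markers of the immune cells that enter reperfused muscle were compared beside these genes. In bulk tissue, fewer cells of a type and less RNA per cell cannot be told apart. None of 17 neutrophil markers was called (2 of 17 had an unadjusted p under 0.05, both higher, against 3.63% of all genes), and their mean was 5.00, 4.35 and 4.31 in wildtype hearts and 4.79, 4.49 and 5.09 in Per2-/- hearts. The genotypes overlapped widely. The median difference over these markers was 0.22, and 14 of the 17 were above 0, where 49.9% of all genes were. With 1 heart left out this median lay between 0.06 and 0.51. Per2-/- heart 3 was the highest of its group in 13 of these 17 markers, while it was the lowest in 16 of the 18 interferon genes. From sham hearts, 4 of these markers rose in wildtype (1.66% of all genes did) and 10 in Per2-/- hearts (2.78%). Without the arrays with high Myl7, 6 rose in Per2-/- hearts. The median change in wildtype hearts was 0.66, and 0.68 without those arrays, where a single wildtype sham heart is left and the calls were lost. None of 17 monocyte and macrophage markers was called, with means from 6.49 to 6.97 in wildtype and from 6.64 to 6.87 in Per2-/- hearts, and none of 12 lymphocyte markers. The part of these cells in the differences was not tested.

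Vsig4, a complement receptor of resident macrophages, was the called gene closest to these cell types. It read 5.06, 4.04 and 4.60 in wildtype hearts and 5.51, 6.25 and 5.95 in Per2-/- hearts. There was no overlap, and the difference was 1.34 ± 0.25 (2.52-fold, adjusted p = 0.0359, limma), against 0.25 in sham hearts. Its change from sham passed the test in neither genotype, with -0.46 in wildtype and 0.62 in Per2-/- hearts. Over the 17 monocyte and macrophage markers the median difference was 0.01 and 10 were above 0, from -0.12 to 0.49 (Lyve1), and none was called. The call of Vsig4 was lost without wildtype heart 2, wildtype heart 3, Per2-/- heart 2, Per2-/- heart 3 or the arrays with high Myl7, and it was made in 11 of 18 refits, with adjusted p up to 0.313.

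Cytokines, chemokines and their signalling were compared because the study addressed inflammation in the reperfused heart. Among 22 cytokine genes, 25 of cytokine receptors and signalling, 31 of chemokines and their receptors, 20 of innate sensors, 16 of endothelial adhesion and 21 of NF-kB, none was called between the genotypes after I30R60. Their median differences were 0.07, 0.13, 0.16, 0.18, 0.06 and 0.13, against 0.00 over all genes tested. Genes with an unadjusted p under 0.05 numbered 3, 2, 4, 4, 1 and 5, all higher in Per2-/- hearts, where 3.63% of all genes were. With 1 heart left out the medians moved between 0.04 and 0.14 for cytokines, 0.08 and 0.25 for cytokine receptors, 0.10 and 0.24 for chemokines, 0.05 and 0.36 for innate sensors, -0.01 and 0.12 for adhesion, and 0.04 and 0.21 for NF-kB. The lowest values came without Per2-/- heart 1 for cytokines, chemokines and NF-kB, and without wildtype heart 2 for the others.

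The adhesion molecule Icam1, which neutrophils bind, read 7.85, 7.74 and 8.60 in wildtype hearts and 9.50, 9.13 and 8.35 in Per2-/- hearts. Per2-/- heart 3 fell within the wildtype range, and the difference of 0.93 was not called (adjusted p = 0.295, limma). Tnfaip3, a brake on NF-kB, read 6.75, 6.50 and 7.29 against 8.03, 7.47 and 6.84 (difference 0.60), and the inhibitor Nfkbia 9.36, 9.21 and 9.58 against 10.11, 9.92 and 9.61 (difference 0.50), with no call for either. Socs1, a feedback inhibitor of cytokine signalling, read 5.28, 4.76 and 5.35 against 5.70, 5.50 and 5.93, with no overlap and a difference of 0.58 (adjusted p = 0.235, limma). The kinase Jak2 differed by 0.35 and the receptors Tlr2 and Nod2 by 0.67 and 0.68, again without a call.

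The 24 reperfusion genes of the study were partly chosen by the study on these same hearts, so that their count is not independent evidence. Between the genotypes after I30R60, 1 of the 24 was called, Nts, and it was lower. The median difference was 0.19, and 17 of the 24 were above 0. The median was 0.07 without Per2-/- heart 1 and 0.08 without wildtype heart 2. Nts encodes the precursor of neurotensin, a peptide that acts on vessels and gut. It read 4.95, 5.42 and 4.95 in wildtype hearts and 4.24, 4.41 and 4.33 in Per2-/- hearts, without overlap (difference -0.78 ± 0.16, adjusted p = 0.0455, limma). It rose from sham hearts in both genotypes, by 1.65 in wildtype and 0.70 in Per2-/- hearts. The difference between these changes was -0.94 ± 0.22 (adjusted p = 0.448, limma). The changes were 1.82 and 0.64 without the arrays with high Myl7, and the one in Per2-/- hearts was then not called. Without the arrays with high Myl7 the adjusted p of the difference after I30R60 was 0.0757, the call was also lost without any 1 of the 6 hearts, and it was made in 6 of 17 refits.

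Il6, Il1b and Tnf overlapped between the genotypes. Il6, the acute cytokine, read 7.80, 7.62 and 7.90 in wildtype and 8.18, 7.39 and 7.63 in Per2-/- hearts (difference -0.04), and Il1b lay between 6.33 and 7.11 in wildtype and between 6.28 and 7.61 in Per2-/- hearts (difference -0.01). Tnf read 6.35, 5.94 and 6.49 against 7.49, 6.71 and 5.86, a difference of 0.43 (adjusted p = 0.816, limma). In each of these the highest Per2-/- heart was heart 1. Trem1, a receptor that amplifies inflammation in neutrophils and monocytes, read 2.91, 2.78 and 3.16 against 3.31, 3.40 and 4.22. These did not overlap, and the difference of 0.70 was not called (adjusted p = 0.199, limma). Il1a differed by 0.86 and Acod1, which makes itaconate in activated macrophages, by 0.79, both with overlap. Without Per2-/- heart 3, Il1a differed by 1.45 and was called (adjusted p = 0.0211, limma; 0.0211 to 0.889 over its refits).

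Against sham hearts of the same genotype, 15 of the 24 rose and 1 fell in wildtype hearts, and 20 rose and none fell in Per2-/- hearts. Over all genes, 1.66% rose and 0.808% fell in wildtype, and 2.78% rose and 2% fell in Per2-/- hearts. Il6 rose by 4.24 in wildtype and 4.03 in Per2-/- hearts. The median change was 1.26 and 1.35. The nuclear receptor gene Nr4a1 rose by 1.36 in wildtype hearts and changed by 0.37 without a call in Per2-/- hearts, where the sham level was 0.95 higher than in wildtype, and the difference between the changes was -0.99 ± 0.34 (adjusted p = 0.888, limma). Ehhadh, an enzyme of peroxisomal fatty acid oxidation, was the gene that fell in wildtype hearts, by 1.01. Without the arrays with high Myl7, 14 rose in Per2-/- hearts. In wildtype hearts fewer rose in that fit, which leaves a single wildtype sham heart. Their median change there was 1.36. Ehhadh stood at -0.81 in wildtype and -0.66 in Per2-/- hearts in that fit, without a call in either genotype. Its genotype difference in sham hearts was -0.75 there.

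**Figure D4:**
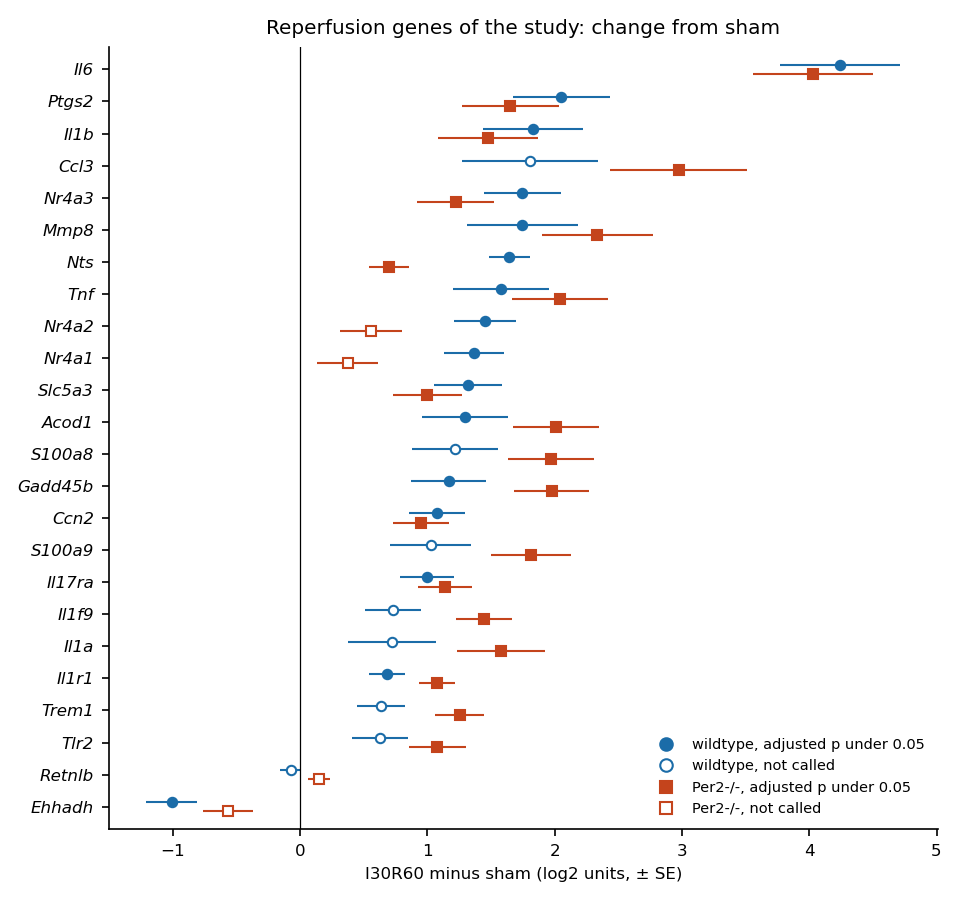
Change from sham to I30R60 in log2 units with its standard error (horizontal axis) for the 24 reperfusion genes of the study (rows), in wildtype hearts (blue circles) and Per2-/- hearts (red squares), with filled symbols where the adjusted p was under 0.05. Il6 stands at 4.24 and 4.03, and Nts at 1.65 in wildtype and 0.70 in Per2-/- hearts.

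Clock genes came next, since Per2 belongs to them. Per2 itself read 5.51, 6.54 and 6.71 in wildtype hearts and 5.58, 5.99 and 6.25 in Per2-/- hearts, with overlap (difference -0.31, adjusted p = 0.813, limma). Which part of the transcript its probes cover relative to the deleted part is not given in the sources used here, so that these values do not check the genotype. None of 18 measured clock genes was called, and their median difference was 0.09. Npas2 read 7.29, 6.21 and 5.62 against 5.26, 5.06 and 5.24, and lay lower in all Per2-/- hearts (difference -1.19, adjusted p = 0.364, limma). Arntl read 7.32, 6.03 and 5.18 against 5.72, 5.09 and 5.12 (difference -0.87). Wildtype heart 1 stood apart here: it had the highest Arntl and Npas2 and the lowest Per3, at 5.10 against 5.89 and 6.62 in the other wildtype hearts. Cry1, a repressor that partners Per2, differed by 0.41, and Per1 by 0.11.

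Fatty acid genes were compared because the study addressed lipid metabolism. None of 20 fatty acid oxidation genes and none of 16 PPAR-alpha targets was called. The median difference was 0.00 in the first list, in which 2 of 20 had an unadjusted p under 0.05, both lower. In 3 of the 20 all Per2-/- hearts lay lower, as 6.61% of all genes tested did. The median was -0.11 in the second list, in which 5 of 16 had an unadjusted p under 0.05, all lower, where 4.7% of all genes did. Ehhadh, which is in both lists, read 6.61, 6.63 and 6.33 in wildtype and 5.91, 6.14 and 5.70 in Per2-/- hearts, with no overlap and no call (difference -0.60, adjusted p = 0.356, limma). Angptl4, an inhibitor of lipoprotein lipase, read 7.72, 7.31 and 6.37 in wildtype and 6.45, 5.59 and 6.28 in Per2-/- hearts (difference -1.03). Ucp3, a mitochondrial carrier that follows fatty acid supply, read 8.73, 8.65 and 7.35 against 7.37, 7.03 and 7.26 (difference -1.02). In both, wildtype heart 3 lay within the Per2-/- range. Cpt1a, which admits fatty acids to mitochondria, read 8.47, 8.58 and 8.32 against 8.01, 8.13 and 8.07 with no overlap, and its difference of -0.39 was not called (adjusted p = 0.210, limma). In sham hearts the median over the PPAR-alpha targets was -0.35, and -0.36 without the arrays with high Myl7. It was 0.07 after I30 and -0.12 after IP0. The median after I30R60 was between -0.29 and 0.00 with any heart left out.

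**Figure D5:**
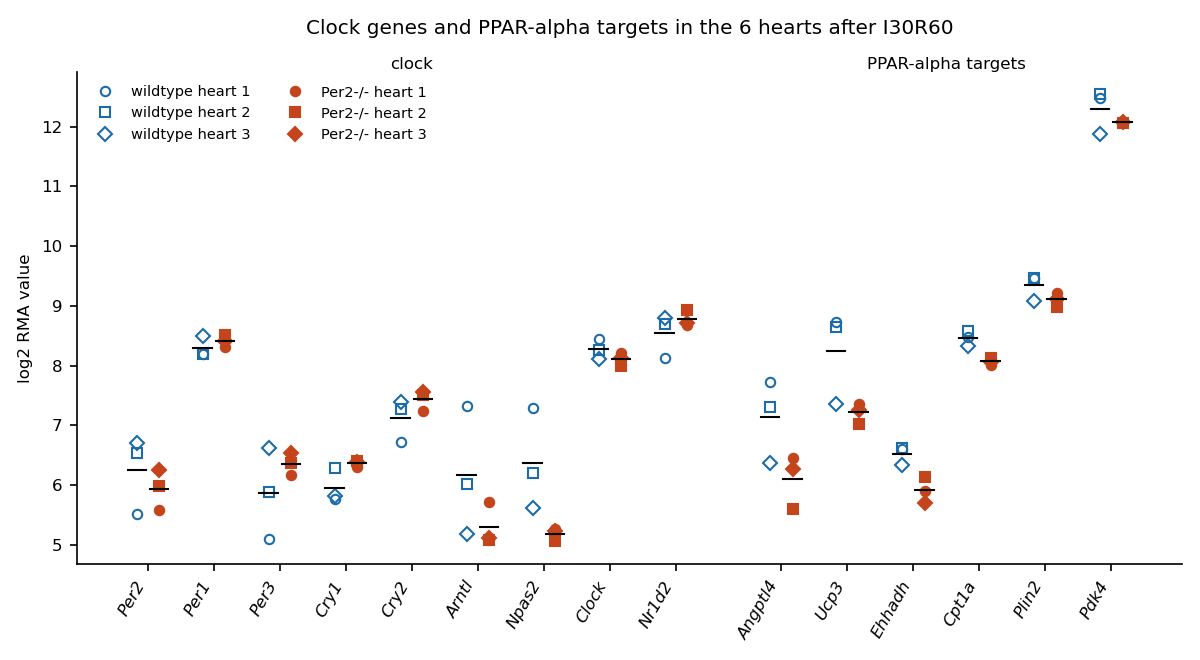
Log2 RMA values (vertical axis) of 9 clock genes and 6 PPAR-alpha targets in the 6 hearts after I30R60, with open blue symbols for wildtype and filled red symbols for Per2-/- hearts, the same shape for the same heart number and short lines for group means. Wildtype heart 1 has the highest Arntl (7.32) and Npas2 (7.29), and wildtype heart 3 has Ucp3 (7.35) at the level of the Per2-/- hearts.

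Other stress programs of reperfusion did not separate the genotypes by any call. Of 32 immediate early genes, 24 rose from sham in wildtype and 20 in Per2-/- hearts, where 1.66% and 2.78% of all genes rose, and their median difference between the genotypes after I30R60 was 0.06 (-0.06 without Per2-/- heart 1). Of 14 heat shock genes 7 rose in each genotype, with a median difference of -0.03 (between -0.11 and 0.01 with 1 heart left out) and Hsph1 at -0.49. Of 20 matricellular, coagulation and protease genes, 14 rose in wildtype and 13 in Per2-/- hearts, and the urokinase receptor Plaur differed by 0.62. The counts of genes that rose in these lists were not repeated without the arrays with high Myl7. The glycogen and glycolysis list (28 genes) had a median difference of 0.03, with Ppp1r3c, which targets a phosphatase to glycogen, at 0.46. Hmox1, which degrades heme, led the list of hypoxia-inducible genes (17 measured) at 0.58. Medians were -0.06 over 6 adenosine genes, with Ada at 0.48, and -0.01 over 13 prostaglandin genes, with Ptger3 at 0.31. Among 10 ventricular stress genes Nppa read 11.02, 11.11 and 10.94 in wildtype and 10.20, 9.08 and 11.10 in Per2-/- hearts, a wide spread within the Per2-/- group.

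Markers of the other cells of the ventricle were not called. Acta2, the smooth muscle actin, read 10.75, 10.98 and 11.45 in wildtype and 10.15, 9.92 and 10.78 in Per2-/- hearts (difference -0.78, adjusted p = 0.184, limma), and without Per2-/- heart 3 the difference was -1.03 and called (adjusted p = 0.0440, limma; 0.0440 to 0.572 over its refits). The median over 9 smooth muscle and pericyte markers was -0.12, and its sign rested on 1 heart, with 0.12 without wildtype heart 3 and -0.26 without wildtype heart 2. Medians were -0.03 over 11 endothelial and 0.08 over 11 fibroblast markers, -0.04 over 11 ventricular cardiomyocyte markers, -0.11 over 6 atrial, 0.02 over 10 lung epithelial, 0.13 over 4 blood and -0.09 over 6 adipocyte markers. The part of these cells in the called differences was not tested.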

How the data were processed

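Left ventricular RNA was hybridised to 24 Affymetrix Mouse Gene ST arrays (1.1 ST in the methods, 2.1 ST in the design text). What the authors deposited is on the log2 scale, after RMA, for which the labels name Partek, and holds no detection calls. Of 35555 probe sets, 21218 are paired with 1 symbol, and 1881 with several and 12456 not listed were tested apart. For 1386 genes with several probe sets the one with the highest mean over 24 arrays was used. Groups came from the sample titles. limma 3.58.1 (R 4.3.3) estimated 1 mean for each of the 8 groups from the 24 arrays together, leaving 16 residual degrees of freedom, with moderated variances and Benjamini-Hochberg adjustment over 18820 genes. The number of arrays limits the precision: a typical gene had an SD of 0.172 inside its groups, and its genotype difference a standard error of 0.137 (medians). The methods give 3 animals per condition, and the labels number the replicates. The members and lists (24 of pathways or of the study and 11 of markers) were chosen with earlier results of these data known. Named were Per2, the called genes, the study's reperfusion genes, and up to 4 members of each other list with the largest differences. Ctse, Cct5, Tas2r119, the genes from Cpq to Rnf19a, Irf7, Ifit2, Ifit3, Usp18, Mx1 and Per1 were named after their values were seen. Old symbols were matched through RefSeq (18787 of the symbols), which gave gene order and promoters. Tests were checked on simulated data in R, tables and figures were made in Python 3.11.15. Alternatives covered the arrays in the model, limma's options, scaling, filters, probe sets, a replicate block, thresholds, the methods' t-test and each of the 6 hearts left out. Those on changes from sham without the arrays with high Myl7 were added after seeing the data.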

Additional observations from a re-analysis of the deposited data

Results flagged for a closer look

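Outside the tests of genes, 2 of 1881 probe sets paired with several symbols and 2 of 12456 probe sets that the pairing does not list differed between the genotypes after I30R60 (limma, adjusted over both kinds together). All 4 were lower in Per2-/- hearts, between -1.49 and -0.98 log2 units. The 2 with several symbols were also called lower in sham hearts, and the others were not. They are given because they lie outside the measurements compared above. The pairing names no 1 gene for them.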

How the results depend on the processing

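The 33 calls between the genotypes after I30R60 numbered 7 with the 6 arrays alone, 52 with a variance trend, 62 with a robust trend, 15 in an ordinary linear model, 57 among genes over 5 in at least 3 arrays, 64 at an adjusted p under 0.10 and 10 with at least 2-fold. The methods' t-test gave 1192 at an unadjusted p under 0.05 and 0 after Benjamini-Hochberg. Centring gave 11 higher and 11 lower, quantile normalization 12 and 12, against 13 and 20. Leaving out 1 of the 6 hearts gave 9 to 33 calls, with 14 without wildtype replicate 2, 9 without wildtype replicate 3 and 13 without knockout replicate 1, and 9 to 21 of the 33 were shared. For the contrast with sham hearts the count of 0 was not kept without the arrays with high Myl7, where a single wildtype sham heart is left. For the contrast with I30 it became 3 with a variance trend, 1 with a robust trend, 7 with the filter and 3 at an adjusted p under 0.10, and 0 to 2 with a heart left out (2 without knockout replicate 3). For the contrast with the other 3 treatments it was 0 to 4 with a heart left out (4 without knockout replicate 3). The cause was not tested. The contrast with the other 3 treatments uses all arrays, so that no fit on fewer groups was made. With the replicate block, 29 genes were called, 27 of them shared with the 33, and the contrasts stayed at 0 calls. Deviations of hearts with the same number correlated by 0.08, 0.06 and -0.02, so that the numbers were not taken as pairs. Of 4167 values of single genes, 203 lost a call, 2 gained one, 4 moved by more than the spread between hearts without a call, and 0 called values changed sign. Only values of the 33 called genes could lose a call, and most of the 4167 belong to other genes. The 203 set against 4167 is therefore no measure of how stable the calls were. Of the 33 genes, 5 were called in all refits. Signal over background is not given with these arrays and limits what can be said of genes at low values.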
